A study of Homo sapiens with 4 samples.

Results

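Among the distal open chromatin regions of MCF10A cells that were strong with and without active TAZ, 1543 regions kept a similar enrichment in both conditions, and these stable strong distal regions are described here. MCF10A cells are human mammary epithelial cells that are immortal but not transformed, and the line used carried a tet-inducible TAZ-4SA, a constitutively active form of the transcriptional co-activator TAZ. Cells without doxycycline (No Dox) were set against cells given 0.05 µg/mL doxycycline (Dox) for 72 h. Each condition had 2 replicates, and each transposition reaction used 50000 cells. Both groups carried the inducible transgene and grew in medium with EGF, hydrocortisone, insulin, cholera toxin and horse serum, and cells given Dox without the transgene were not analysed here. The assay was ATAC-seq, which reads out open chromatin as the places where a transposase can insert sequencing adapters. The authors called peaks once per condition, on pooled replicates, so no spread between replicates, no test and no p-value can be given. The 95% intervals below are exact Clopper-Pearson intervals and cover counting error only. Where a count was 0, the limit given is instead the share that 3 counts would make.

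Members were found by a fixed rule. Overlapping or touching peaks of both lists, on the autosomes and X, were merged into 149858 regions, of which 48557 held peaks of both lists and 28193 of these lay more than 3 kb from any transcription start site (TSS) of GENCODE release 44. The fold is the enrichment of a peak over background, as the peak caller gave it, and the highest fold of each list was taken per region. Members had a fold of at least 8 in each list and a fold ratio between the lists of at least 0.8 in either direction (Dox to No Dox or No Dox to Dox). They made up 5.47% of the shared distal regions. Of the 3001 distal regions that reached a fold of 8 in both lists, 51.4% had a ratio in this range, against 50.3% of all 28193 shared distal regions. Nothing is read from these shares, since the members were chosen by their folds, and the word stable stands only for the ratio of the 2 pooled lists. The other strong distal regions were 497 with a higher and 961 with a lower fold with Dox. Comparison sets were also the 12643 stable distal regions below the fold limit (stable weaker regions) and the 4030 regions with the same fold and ratio limits within 3 kb of a TSS.

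Distal accessible regions include enhancers, where transcription factors displace nucleosomes, and insulators bound by CTCF. TEAD factors bring YAP and TAZ to DNA, since TAZ does not bind DNA by itself, and they often act at enhancers together with AP-1, the dimer of FOS and JUN proteins. RUNX, C/EBP and p63 are other transcription factors of epithelial cells. Motifs of such factors were sought as fixed letters on both strands within 100 bp of the No Dox summit, the point of highest signal of the strongest peak. The letters were TGACTCA for AP-1 (TGAGTCA on the other strand), ACATTCC or GCATTCC for TEAD, TGTGGTT or TGCGGTT for RUNX, TTGCNNAA for C/EBP, CCNNNAGNNGGC for CTCF, CCGGAA for ETS and GGGCGGG for SP and KLF factors. A match is a stretch of letters, not a measured binding event.

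The reference sequences below come from hg38 on the plus strand and span 121 bases centred on the No Dox summit. They show, for each leading motif, the member with the highest lower fold that held it within 50 bp of the summit, with 1 chromosome left out of the choice, and matches are in capitals. The first, intergenic and 202.7 kb from the nearest coding TSS (ROBO2), held AP-1. The second lay in a repetitive stretch near the centromere of chromosome 5, where runs of the letters cattc recur and 1 copy reads as TEAD. Because of this repeat, the TEAD member with no repeated 31-mer within 100 bp of the summit, in an intron of CHRM3, was added after the values were seen. The strongest of the members with AP-1 and TEAD in the shown window, far from any coding gene on chromosome 1, was added in the same way.
AP-1, chr3:77825526-77825646: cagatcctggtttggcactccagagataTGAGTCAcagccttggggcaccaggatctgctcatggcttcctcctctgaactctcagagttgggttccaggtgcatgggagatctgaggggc
TEAD in a repeat, chr5:49658088-49658208: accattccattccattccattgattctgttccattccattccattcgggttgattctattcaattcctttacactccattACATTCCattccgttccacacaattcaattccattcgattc
TEAD, chr1:239816204-239816324: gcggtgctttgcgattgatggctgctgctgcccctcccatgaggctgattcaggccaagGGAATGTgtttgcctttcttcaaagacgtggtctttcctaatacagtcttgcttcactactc
AP-1 and TEAD, chr1:195097443-195097563: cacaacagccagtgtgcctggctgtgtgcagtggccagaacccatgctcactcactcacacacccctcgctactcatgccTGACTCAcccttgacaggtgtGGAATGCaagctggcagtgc

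The next sequences show the other motif classes in the same way. The CTCF member was intergenic, 27.6 kb from the TSS of ZNF648, and its match lay in GC-rich DNA. A single member in an intron of PCNX2 was the one chosen for both RUNX and C/EBP. The ETS member lay in an intron of LSAMP and the p53/p63 member in an intron of GLRA1.
CTCF, chr1:182029750-182029870: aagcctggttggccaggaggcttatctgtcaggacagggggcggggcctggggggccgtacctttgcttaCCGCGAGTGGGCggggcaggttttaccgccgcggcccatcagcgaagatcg
RUNX and C/EBP, chr1:233113159-233113279: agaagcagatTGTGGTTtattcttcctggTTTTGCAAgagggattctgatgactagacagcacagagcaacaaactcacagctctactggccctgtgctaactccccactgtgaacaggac
ETS, chr3:116939281-116939401: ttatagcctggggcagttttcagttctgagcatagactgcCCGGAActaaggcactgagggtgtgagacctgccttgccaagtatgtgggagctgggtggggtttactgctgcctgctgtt
p53/p63, chr5:151896402-151896522: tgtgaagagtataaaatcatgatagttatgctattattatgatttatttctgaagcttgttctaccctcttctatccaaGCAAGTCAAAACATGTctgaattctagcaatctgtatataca

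The Dox fold of the members had a median of 11.1 (quartiles 9.49 and 13.9) and ran up to 86.6, and the No Dox fold had a median of 11.2 (9.64 and 14.2) and ran up to 106. Their median ratio was 0.976, and 883 of them (57.2%) had a lower fold with Dox. The members were selected on these values, which are given as a description. For comparison, the median ratio was 0.953 over all shared distal regions and 0.924 over the strong ones. Folds came in steps of 0.226 in the Dox list and 0.212 in the No Dox list, so regions lie close to the limits on both sides. The members nearest to the fold limit had a lower fold of 8.05 and the nearest regions outside it 7.91. At the ratio limits, the nearest members had ratios of 0.8003 and 1.249, and the nearest regions outside had 0.799 and 1.253.

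**Figure D1:**
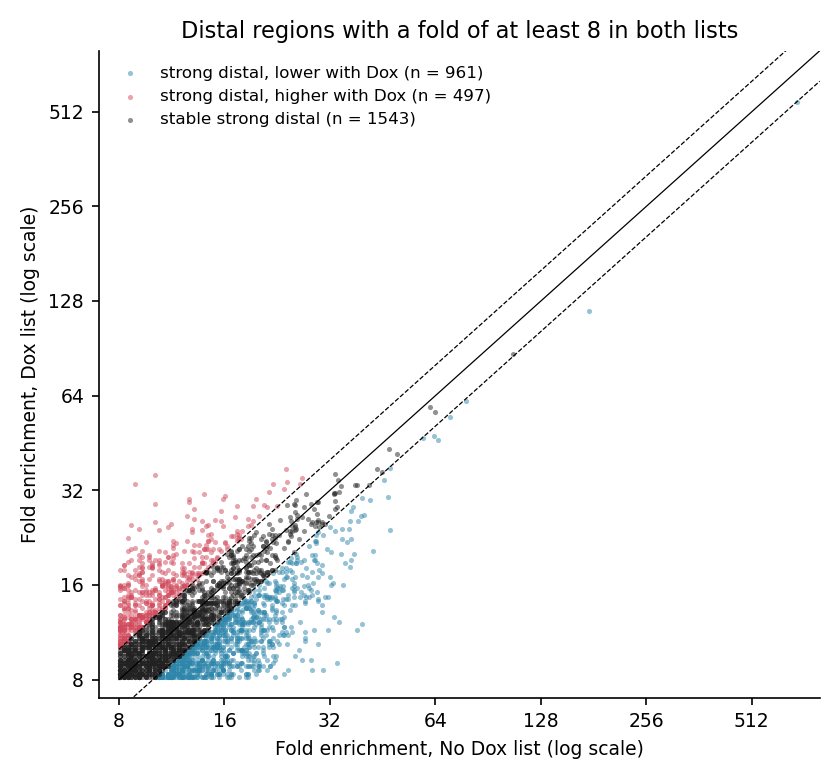
Fold enrichment in the Dox list (y axis) against the No Dox list (x axis), both on log scales, for the 3001 distal regions with a fold of at least 8 in both lists, 1 point per region. The 1543 stable regions fill the band between the dashed lines, which mark the limits of the ratio, and the solid line marks equal folds.

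The 10 members with the highest lower fold were a mixed group. The highest was chr5:49656513-49661832, with folds of 86.6 (Dox) and 106 (No Dox), the repetitive region shown above with a TEAD match. Its summits lay 3322 bp apart in the 2 lists, the largest distance of all members. A second region of the same stretch, chr5:49666172-49667333, had folds of 33.2 and 41.3. No motif was found within 100 bp of its No Dox summit. Its sequence is not shown because 38 of the 121 bases around that summit are unresolved in hg38. The third in rank, chr21:8219429-8220595, had folds of 56.7 and 64. Of the 31-mers within 100 bp of its No Dox summit, 42.7% occurred more than once in the genome.

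The other regions of this group mostly had unique DNA around the No Dox summit. The CTCF region near ZNF648, chr1:182029123-182030411, had folds of 58.8 and 61.6, with both summits at the same base. The AP-1 region nearest to ROBO2, an axon guidance receptor gene, chr3:77825072-77826272, had 43.4 and 47.0, with summits 1 bp apart and a TEAD match within 100 bp of the No Dox summit. CHRM3, which encodes a muscarinic receptor, held chr1:239813554-239820377 in an intron, with 41.6 and 49.6. PCNX2 held chr1:233111757-233115076 in an intron, with 34.6 and 33.7, the only 1 of the 10 with a higher fold with Dox. RNF144A, an E3 ubiquitin ligase gene, held chr2:7031108-7033618 in an intron, with 33.2 and 38.3. On chromosome 8, an intronic region of SNTB1, a syntrophin gene, had 37.5 and 43.6, and an intergenic region 281.6 kb from KCNK9, a potassium channel gene, had 36.6 and 45.1. The latter held C/EBP letters and had a higher lower fold than the PCNX2 region, but chromosome 8 was left out when the sequences above were chosen. Of the 20 members with the highest lower fold, 9 held repeated 31-mers within 100 bp of the No Dox summit. In 3 members, more than 50% of the 31-mers there were repeated, and 13 of the 20 lay on chromosomes 1, 5 and 8.

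AP-1 was the most frequent motif of the members. Of 1543 members, 620 (40.2%, 37.7 to 42.7) held it within 100 bp of the summit, against 17.7% of stable weaker regions (17.0 to 18.4), 6.77% of stable strong regions near a TSS and 24% of all shared distal regions. Among the other strong distal regions the share was 31.6% (27.5 to 35.9) where the fold was higher with Dox and 47.3% (44.1 to 50.6) where it was lower. The intervals of the members overlapped with none of these. The reversed letters of AP-1, sought as a control, were in 4.73% of members and 4.36% of all shared distal regions. In windows of the same size centred 1000 bp to either side of the summit, 3.66% of 3086 windows held AP-1 (3.03 to 4.39).

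TEAD lay between the regions that differed with Dox. It was found in 259 members (16.8%, 15 to 18.7), in 30.8% of strong distal regions with a higher fold with Dox (26.8 to 35.0) and in 10.9% of those with a lower fold (9.02 to 13.1). The share was 8.76% in stable weaker regions, 4.04% near a TSS and 11.1% over all shared distal regions. In the flanking windows it was 4.83%, and the reversed TEAD letters were in 1.94% of members. The intervals of the members overlapped with none of those of the other sets.

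CTCF showed no such excess. It was found in 87 members (5.64%, 4.54 to 6.91), against 6.81% of all shared distal regions, 7.72% of stable weaker regions (7.26 to 8.20) and 12.3% of stable strong regions near a TSS (11.3 to 13.3). In strong distal regions with a higher and a lower fold with Dox it was 5.03% and 5.41%, with intervals that held the value of the members. The flanking windows of the members held CTCF in 1.94% and the reversed CTCF letters were in 0.713% of members. CTCF members had a median GC content of 60.2% around the summit and a summit distance of 23 bp between the lists.

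C/EBP and RUNX were also more frequent in the members than in weaker regions. C/EBP letters were in 310 members (20.1%, 18.1 to 22.2), in 12.5% of stable weaker regions (11.9 to 13.1) and in 10.2% of flanking windows. RUNX letters were in 161 members (10.4%, 8.95 to 12.1), in 6.27% of stable weaker regions (5.86 to 6.71) and in 4.50% of flanking windows. For both motifs the interval of the members overlapped with those of the strong distal regions that were higher and lower with Dox, which were 18.1% and 23.3% for C/EBP and 11.5% and 10.8% for RUNX. AP-2 letters, GCCNNNGGC, were in 197 members (12.8%, 11.1 to 14.5) and in 9.55% of stable weaker regions (9.05 to 10.1). They were in 3.82% of flanking windows and in 27.6% of stable strong regions near a TSS. In strong distal regions higher and lower with Dox the AP-2 shares were 11.5% and 11.7%, with intervals that overlapped with that of the members.

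Motifs of promoters were rare in the members. SP and KLF letters were in 6.09% of members and 47.7% of stable strong regions near a TSS, and ETS letters in 4.02% and 19.9%. The share for SP and KLF was still above that of stable weaker distal regions (3.42%, 3.11 to 3.75, against 4.95 to 7.4 in members). For NF-kB, the glucocorticoid receptor and the E-box of SNAIL and ZEB, the intervals of members and stable weaker regions overlapped. NF-kB letters were in 5.96% of members (4.83 to 7.26), 5.82% of stable weaker regions and 2.72% of flanking windows (2.18 to 3.36). Letters of the glucocorticoid receptor, which hydrocortisone in the medium activates, were in 7.71% of members (6.43 to 9.16). They were in 6.26% of stable weaker regions and 6.29% of flanking windows (5.46 to 7.20). The E-box, CAGGTG, was in 19.8% of members (17.8 to 21.8), 21.6% of stable weaker regions and 15.6% of flanking windows (14.3 to 16.9). NF-kB and E-box letters were thus more frequent in members than in their flanking windows.

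Several motifs were scarce. The p53/p63 motif was in 6 members (0.389%), STAT in 15 and CREB/ATF in 9. For GRHL, an epithelial factor, only the letters AACCNGGTT were sought. They were in 0 of 1543 members, which allows a share of up to 0.194%, and in 23 of all 28193 shared distal regions. The form without a base between AACC and GGTT was not sought, so the share of GRHL sites is not known here. YY1 letters were in 1.75% of members (1.16 to 2.54), below the 3.89% of flanking windows (3.23 to 4.63). Of the 19 motifs, none was found within 100 bp of the summit in 204 members (13.2%, 11.6 to 15), against 29.8% of stable weaker regions (29.0 to 30.6). In strong distal regions higher and lower with Dox this share was 15.9% (12.8 to 19.4) and 13.8% (11.7 to 16.2). Both intervals overlapped with that of the members.

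**Figure D2:**
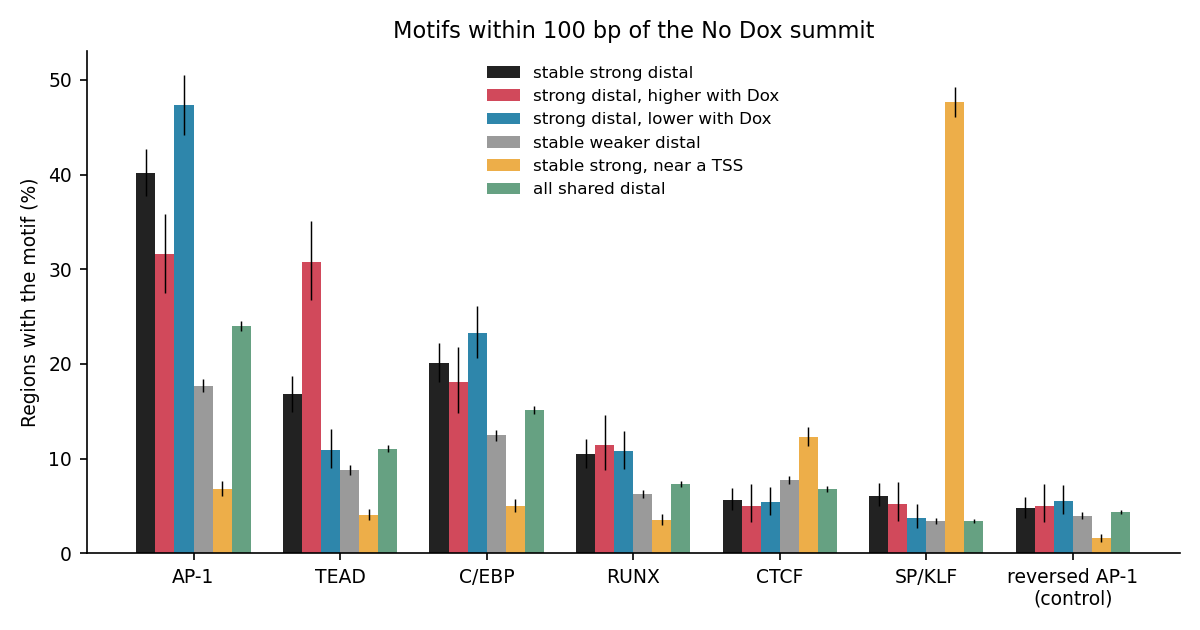
Percent of regions (y axis) with each motif within 100 bp of the No Dox summit (x axis), with 95% Clopper-Pearson intervals, in the stable strong distal regions and the comparison sets. AP-1 was in 40.2% of the stable strong distal regions, TEAD lay between the regions higher and lower with Dox at 16.8%, and SP and KLF letters were mostly near a TSS.

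The shares of AP-1 and TEAD were higher at higher fold up to the limit of 8, and differed little beyond it. Among stable distal regions, AP-1 was in 10.4% at a lower fold under 4, in 23.1% from 4 to 6 and in 34.1% from 6 to 8. Within the members it was 40.3% from 8 to 10, 42.7% from 10 to 12, 36.8% from 12 to 16, 41.1% from 16 to 24 and 39.6% from 24, with overlapping intervals. TEAD was in 6.49%, 10.2% and 14.7% of the 3 weaker classes and in 16.8% of members with a lower fold from 8 to 10. In the 53 members from a fold of 24, TEAD was in 28.3%, with an interval of 16.8 to 42.3. CTCF was in 6.17% of stable distal regions under a fold of 4, in 9.66% (8.82 to 10.5) from 4 to 6, and in 4.32% (2.44 to 7.03) of members from 10 to 12.

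Within the members, TEAD also varied along the ratio. It was in 13.6% of members with a ratio from 0.8 to 0.9 (10.5 to 17.2), in 15.1% from 0.9 to 1, in 19.7% from 1 to about 1.1 and in 20.5% from there to the upper limit (15.8 to 26). The intervals of the first and last of these classes overlapped. Outside the members, TEAD was in 7.84% of strong distal regions with a ratio under 0.5 and in 30.8% of those from the upper limit to 1.6. AP-1 was flat within the members, at 41.1%, 37.1%, 42.5% and 40.3% in the same 4 classes, and was 57.8% under a ratio of 0.5 and 27.3% from 1.6.

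**Figure D3:**
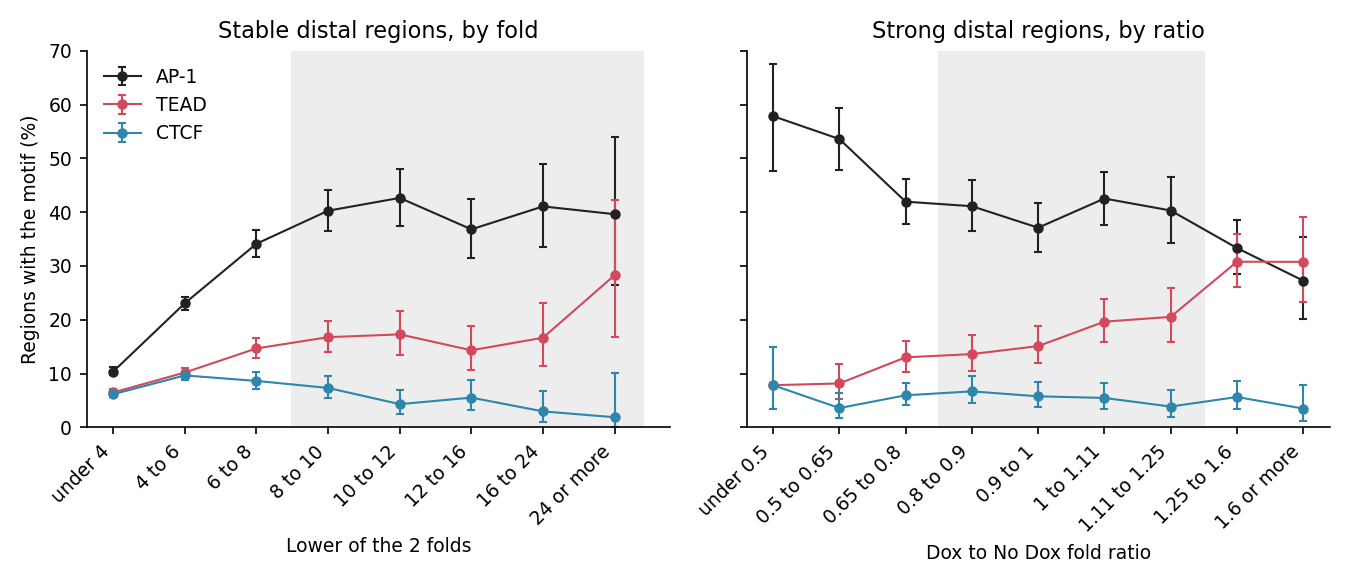
Percent of regions (y axis) with AP-1, TEAD and CTCF, by classes of the lower fold in stable distal regions (left) and by classes of the Dox to No Dox ratio in strong distal regions (right), with 95% Clopper-Pearson intervals. Grey marks the members, within which AP-1 stayed between 36.8% and 42.7% by fold and TEAD ran from 13.6% to 20.5% by ratio.

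AP-1 and TEAD were in part found in the same members. Both were in 96 members (6.22%), AP-1 alone in 524, TEAD alone in 163, and either in 783 (50.7%, 48.2 to 53.3). Either motif was in 24.7% of stable weaker regions. In strong distal regions with a higher and a lower fold with Dox it was in 53.5% (49.0 to 58.0) and 53.3% (50.1 to 56.5). These intervals overlapped with that of the members. TEAD was in 15.5% of members with AP-1 (12.7 to 18.6) and in 17.7% of those without it (15.3 to 20.3), intervals that overlap. CTCF, in contrast, was in 2.26% of members with AP-1 (1.24 to 3.76) and in 7.91% of those without it (6.25 to 9.84), and over all shared distal regions these shares were 3.38% and 7.89%. In the 96 members with both AP-1 and TEAD, the gap between the nearest matches had a median of 42 bp (quartiles 13 and 67.3), was at most 20 bp in 33 members and over 50 bp in 40.

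Matches were sought only within 100 bp of the No Dox summit, which bounds their distance to it. The 620 members with AP-1 held 713 matches, 1 each in 530 members and 2 or more in 90. Their median distance to the No Dox summit was 37 bp (quartiles 22 and 61) and to the Dox summit 45 bp. Within 25 bp of the No Dox summit lay 32.8% of AP-1, 28.0% of TEAD and 25.7% of RUNX matches. Of the reversed letters, 24.3% of 74 AP-1 matches and 30% of 30 TEAD matches lay there. The median distance was 44 bp for TEAD and 45 bp for RUNX, against 44 bp for reversed AP-1 and 38 bp for reversed TEAD. TEAD and RUNX matches were thus not closer to the summit than both controls. The AP-1 matches were most frequent 20 to 30 bp to either side of the summit, with 58 and 65 matches, and fewer lay at the summit itself, with 42 and 26 in the bins next to it. The reversed AP-1 letters had between 1 and 8 matches per bin of 10 bp.

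**Figure D4:**
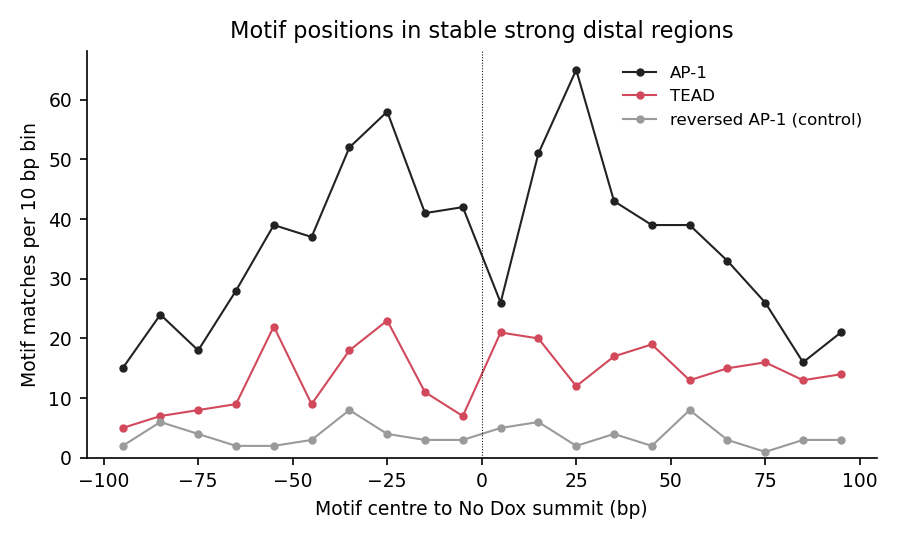
Number of motif matches (y axis) in bins of 10 bp by distance of the match centre from the No Dox summit (x axis, bp) in the 1543 stable strong distal regions. AP-1 had 58 and 65 matches in the bins 20 to 30 bp from the summit and 15 and 21 in the outermost bins, while the reversed AP-1 control had at most 8 in any bin.

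The summits of the 2 lists, which the rule did not use, were close together in the members. Their median distance was 34 bp (quartiles 4 and 73.5), against 108 bp in stable weaker regions and 80 bp over all shared distal regions. It was 43 bp and 30 bp in strong distal regions with a higher and a lower fold with Dox, and 45 bp in stable strong regions near a TSS. Summits lay at most 10 bp apart in 539 members (34.9%, 32.6 to 37.4), in 12.4% of stable weaker regions (11.8 to 13), in 26.2% of strong distal regions higher with Dox (22.3 to 30.3) and in 39.4% of those lower with Dox (36.3 to 42.6). They lay over 200 bp apart in 98 members (6.35%, 5.19 to 7.69) and in 32.8% of stable weaker regions. Among stable distal regions the median distance fell with fold, from 168 bp under a fold of 4 to 73 bp from 4 to 6, 43 bp from 6 to 8 and 39 bp from 8 to 10, so the strength of the peaks moved with this result. Its part was not tested.

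**Figure D5:**
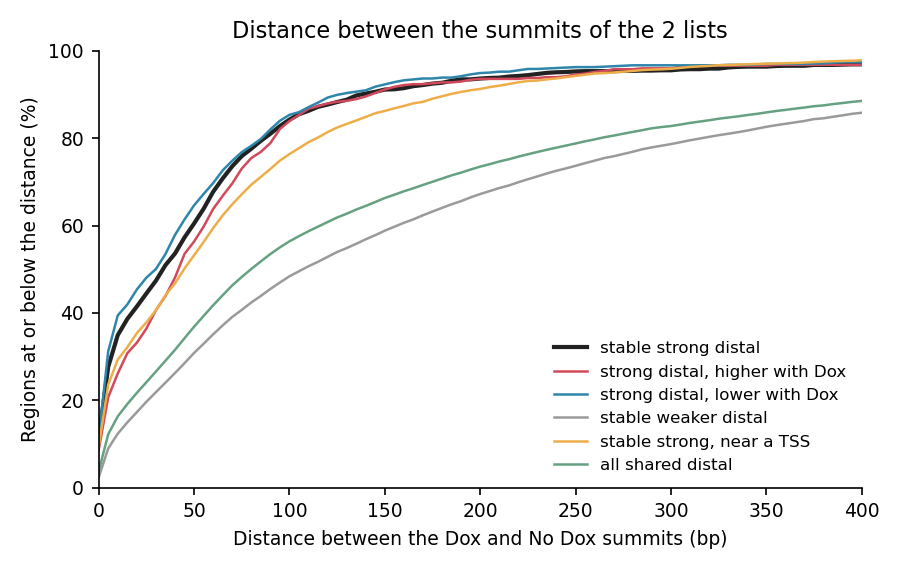
Percent of regions (y axis) whose Dox and No Dox summits lay at or below a distance (x axis, bp) in the stable strong distal regions and the comparison sets. The curve of the stable strong distal regions passes 34.9% at 10 bp, and that of stable weaker regions 12.4%.

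The merged regions of the members had a median width of 1178 bp, against 756 bp in stable weaker and 1510.5 bp in stable strong regions near a TSS. The other strong distal regions were no narrower than the members, at 1220 bp (higher with Dox) and 1262 bp (lower). Exactly 1 peak of each list was held by 95.2% of members and by 94.1% of all shared distal regions. In the strong distal regions higher and lower with Dox this share was 94.0% and 92.9%. The strongest No Dox peak was wider than the Dox peak in 1061 members (68.8%, 66.4 to 71.1), with medians of 1085 and 940 bp. Over all shared distal regions the No Dox peak was wider in 64.9%. It was wider in 43.9% of strong distal regions with a higher fold with Dox and in 86.0% of those with a lower fold. The share thus moved with the fold ratio, by which the members were chosen. At the summits, the members had a median GC content of 48.3% and 2 CpGs within 100 bp, while stable strong regions near a TSS had 68.2% and 19. No CpG was found in 14.8% of members and in 1.14% of the regions near a TSS.

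Chromosomes 1, 5 and 8 held 532 members (34.5%, 32.1 to 36.9) and 43.7% of shared distal regions. Members were thus 4.32% of the shared distal regions there (3.96 to 4.69) and 6.37% elsewhere (6 to 6.76). Per Mb, chromosome 1 held 1.02 members, chromosome 5 held 0.942 and chromosome 8 held 0.737, and chromosome 2, next in order, held 0.607. The median fold of shared distal regions was 4.07 in Dox and 4.45 in No Dox on chromosome 1, against 4.97 and 5.30 on chromosome 2. The window from 210 to 220 Mb of chromosome 1 held 22 members among 1254 shared distal regions, or 1.75%. Copy number was not measured, and its part in the folds was not tested. Without these 3 chromosomes, AP-1 was in 40.9% and TEAD in 18.0% of the remaining 1011 members. Repeated DNA was sought only within 100 bp of the No Dox summit, not over the whole region. There, 1335 members (86.5%) held no 31-mer that occurs more than once in hg38. In 29 (1.88%), more than 50% of the 31-mers there were repeated. AP-1 was in 41.3% and TEAD in 15.9% of the 1335. Within 100 bp of the No Dox summit, mitochondrial 31-mers were in 0 of 1543 members, which allows a share of up to 0.194%. The rest of the regions was not searched for them.

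In the annotation, 826 members (53.5%, 51.0 to 56.0) had their summit in an intron, 690 (44.7%) between genes and 27 (1.75%) in an exon. The intronic share was 54.5% in stable weaker regions and 54.9% over all shared distal regions. With introns of protein-coding transcripts only, it was 36.6% of members. The exonic share was 2.80% over all shared distal regions (2.61 to 3), and the interval of the members was 1.16 to 2.54. The median distance to any TSS was 18.5 kb and to a coding TSS 66.6 kb. More than 100 kb from a coding TSS lay 601 members (39.0%, 36.5 to 41.4), against 42.8% of shared distal regions. Another member lay within 50 kb of 203 members (13.2%), a strong distal region with a lower fold with Dox within 50 kb of 153 (9.92%) and 1 with a higher fold within 50 kb of 81 (5.25%). The neighbours sought numbered 1543, 961 and 497, so these shares do not rank the sets by closeness. The median gap to the nearest member was 410 kb.

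Each member was given the nearest coding TSS if it lay within 100 kb, which does not show that the gene responds to the region. This held for 942 members (61.0%), which fell on 835 of 19618 coding genes, or 4.26%. The members of each gene list below can be read against these 4.26% of coding genes and the 5.47% of all shared distal regions. Of the 835 genes, 743 had 1 member, 78 had 2 and 14 had 3 or more. EGFR, the receptor of the EGF in the medium, had the most, with 4 members among its 11 shared distal regions. The strongest, in an EGFR intron 35.2 kb from the nearest EGFR TSS at chr7:55072910-55074478, had folds of 19.7 (Dox) and 19.1 (No Dox), with summits 1 bp apart. None of the 19 motifs was found within 100 bp of its No Dox summit. The region is shown for that reason and was picked once its values were known.
EGFR, chr7:55074046-55074166: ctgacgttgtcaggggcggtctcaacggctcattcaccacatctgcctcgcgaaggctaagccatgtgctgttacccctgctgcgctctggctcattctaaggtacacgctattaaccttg

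The other EGFR members held AP-1. Within EGFR introns, chr7:55132589-55134313 had folds of 17.4 and 14.2 and chr7:55065127-55066115 had 9.27 and 8.47, while chr7:54967111-54967915, 51.1 kb upstream, had 12.2 and 11.9 and held AP-1 and TEAD. All 4 EGFR members had a ratio above 1, from 1.03 to 1.23. Other genes of EGF signalling with a member were ERRFI1, a feedback inhibitor of EGFR (13.1 and 13.1), and PHLDA1, an EGF-induced gene (12.4 and 12.9). Of the 16 genes of the list of EGF receptor and ligands, 3 had a member, and 6 of their 28 shared distal regions were members (21.4%, 8.30 to 41.0), against 5.47% over all shared distal regions.

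TGFB2, a TGF-beta ligand and YAP/TAZ target, had 3 members, all within its introns on chromosome 1. The strongest, chr1:218376593-218378131, had folds of 31.4 and 33.0 and held a palindrome of RUNX letters near the No Dox summit, likewise picked once its values were known and shown here with the match on both strands.
TGFB2, chr1:218377457-218377577: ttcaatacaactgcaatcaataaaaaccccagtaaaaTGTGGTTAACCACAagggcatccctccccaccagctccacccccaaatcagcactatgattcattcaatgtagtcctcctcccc

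The other TGFB2 members had folds of 10.9 and 10.8 and of 9.95 and 10.8. Of 15 genes of the TGF-beta pathway, 4 had a member. LTBP1, which holds latent TGF-beta in the matrix, had 1 with folds of 14 and 14.4 and an AP-1 match. SMAD7, the inhibitory SMAD, had 1 with 8.36 and 9.96 and matches of AP-1 and TEAD, and SMAD2, a receptor-activated SMAD, had 1 with 8.59 and 8.05. Together 6 of their 42 shared distal regions were members (14.3%, 5.43 to 28.5), an interval that held the 5.47% of all shared distal regions.

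Among 26 YAP/TAZ target genes, 10 had a member, and 13 of their 104 shared distal regions were members (12.5%, 6.83 to 20.4), against 4.26% of all coding genes and 5.47% of all shared distal regions. In the same list 4 strong distal regions had a higher and 3 a lower fold with Dox. Besides TGFB2, these included ASAP1, an ARF GTPase-activating protein gene, with 2 members in its introns (9.27 and 8.26, and 8.59 and 8.90). PTPN14, a phosphatase that binds YAP, had 1 with folds of 12.7 and 13.6, and both summits were at the same base. WTIP, a LIM-domain protein of the Ajuba family, had 1 in an exon with 12.4 and 13.8 and a CTCF match.

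Of the 24 genes of the Hippo pathway and TEAD, 2 had a member. WWC1, also called KIBRA, which promotes Hippo kinase activity, had 2 in its introns, with folds of 18.3 and 15.3 at chr5:168363513-168366592 and of 9.95 and 8.26 at chr5:168301517-168302490. Both had ratios of 1.2, near the upper limit. VGLL4, which competes with YAP and TAZ for TEAD, was assigned 1 member within an intron of the neighbouring gene ATG7 (8.59 and 9.74), which held TEAD. In these genes 3 of 49 shared distal regions were members (6.12%, 1.28 to 16.9), close to the 5.47% over all, and 3 other strong distal regions had a higher and 0 a lower fold with Dox. Of 12 genes of the AP-1 family, ATF3 had 1 member, in an intron with folds of 17.6 and 17.6 and a TEAD match. It was 1 of 18 shared distal regions of this family (5.56%, 0.141 to 27.3), close to the 5.47% over all.

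Genes of epithelial structure were also found near members. Of 22 genes of cell junctions, 6 had a member, and 7 of their 56 shared distal regions were members (12.5%, 5.18 to 24.1, an interval that held the 5.47% over all). PKP1, a desmosomal plaque protein, had 2, with folds of 24.9 and 25.4 next to an AP-1 match and of 10.6 and 10.6. CTNNA1, the alpha-catenin of adherens junctions, had 1 with 19.4 and 22.5, CLDN1, a tight junction claudin, had 1 with 12.7 and 14.2 and an AP-1 match, and CTNND1, the p120-catenin, had 1 with 10.9 and 12.3. Of the 53 shared distal regions of 20 basal epithelium and p63 genes, 5 were members (9.43%, 3.13 to 20.7), and 4 of these were those of EGFR. Of 14 epithelial regulators, 4 had 1 each, namely the ETS factors EHF (10.9 and 9.96) and ELF3 (9.95 and 8.26), KLF5 (8.59 and 8.05) and TFAP2C (9.04 and 8.69). These were 4 of 31 shared distal regions (12.9%, 3.63 to 29.8), an interval that held the 5.47% over all.

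The lists of mesenchymal and luminal genes had 1 gene each with a member. Of 25 mesenchymal and EMT genes, ZEB2, a repressor of epithelial genes, had 1 (9.04 and 8.47), and this was 1 of their 38 shared distal regions (2.63%, 0.0666 to 13.8, against 5.47% over all). Of 12 luminal genes, ESR1, the estrogen receptor, had 1 (17.4 and 20.8), in which the summits lay 692 bp apart, and this was 1 of their 16 shared distal regions (6.25%, 0.158 to 30.2). Among 14 glucocorticoid targets, DUSP1, a MAP kinase phosphatase (14.2 and 14.6), NR3C1, the glucocorticoid receptor itself (12 and 9.96), and ERRFI1 had 1 each. These were 3 of 31 shared distal regions (9.68%, 2.04 to 25.8). BIRC3, an inhibitor of apoptosis, was the only 1 of 20 genes of NF kappa B and TNF with a member (14.7 and 13.8). This was 1 of their 16 shared distal regions (6.25%, 0.158 to 30.2). Of 19 cell cycle genes, MKI67 had 2 and CDK6, a cyclin-dependent kinase, had 1, and those of MKI67 lay 83.6 and 85.2 kb from its TSS. They were 3 of 20 shared distal regions (15%, 3.21 to 37.9). The intervals of these 3 lists held the 5.47% over all.

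Genes of cells that the culture does not hold had members as well. Of 12 immune cell genes, PTPRC and CD14 had 1 each, and of 10 endothelial genes CDH5 had 1. These were 2 of 7 (28.6%, 3.67 to 71.0) and 1 of 13 (7.69%, 0.195 to 36.0) of their shared distal regions, with intervals that held the 5.47% over all. The PTPRC region had folds of 17.9 and 20.1, while no peak lay within 1 kb of a coding TSS of PTPRC in either list. Promoter peaks in both lists were found for KRT5 and EGFR of the basal epithelium, in the Dox list alone for TP63 and in neither for KRT14, CD3E, PECAM1 and ALB. Housekeeping genes had 0 members among 14 shared distal regions, which allows a share of up to 21.4%, and genes of cohesin and CTCF had 0 among 6, too few to compare.

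The other genes with 3 members were of mixed function. ARID1B, a subunit of the SWI/SNF chromatin remodeller, had folds from 10.9 to 25.8 with Dox and ratios from 0.836 to 0.869. BHLHE40, a circadian and stress-responsive repressor, had 3 between genes with folds from 16 to 21.7 with Dox, of which 1 held AP-1 and TEAD. CAPN2, a calpain protease, had 3 in its introns with Dox folds from 8.82 to 16.3. PRR16 had 3 with Dox folds from 12.9 to 20.3, 2 of them with RUNX. RAB3GAP2, a regulator of RAB GTPases, had 3 with Dox folds from 8.59 to 16.5, all with TEAD and 2 of them with AP-1. AJAP1, a junction-associated protein, LYST, a lysosomal trafficking regulator, and CYRIB, a RAC1-binding protein, also had 3 each. Around the No Dox summit, 50.3% of the 31-mers of 1 CAPN2 member and 88.3% of those of 1 LYST member were repeated. ADRA1B, FIGN, NAV2 and LMX1A had 3 members each as well, with a highest lower fold below those of the genes before them.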

How the data were processed

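ATAC-seq was done in 4 samples, 2 per condition. Per the labels and the study's methods, BWA was used by the authors for alignment (hg38) and MACS2 for peaks (FDR 0.05), on the pooled replicates of a condition. Fold enrichments are ratios to background as deposited by the authors, and the deposited −log10 of the q-value was used only to describe peaks. No read counts are in the peak lists, so depth is unknown here. Folds of the 2 lists were normalized separately and may differ in scale.

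Regions were merged, annotated with GENCODE release 44 and searched for 19 motifs and 3 reversed control motifs, written as fixed letters, in the hg38 sequence. The 31-mers were taken within 100 bp of the No Dox summit, and 1 was called repeated when it occurred more than once in hg38. Steps were tested on simulated data. Python 3.11.15, numpy 2.4.6, pandas 2.3.3, scipy 1.17.1, pysam 0.24.0, samtools 1.23.1, numba 0.67.0 and matplotlib 3.10.9 were used.

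Regions named were the 10 members with the highest lower fold, the strongest member of each motif class outside chromosome 8 and the members nearest each limit. Genes named were the 10 with most members and up to 4 of each of 17 lists. Ties went to the highest lower fold. For 1 listed gene no value is given here. The members, lists and motifs were chosen with earlier results of these data known.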

Additional observations from a re-analysis of the deposited data

How the results depend on the processing

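The number of regions was 1543, and depended on the limits: it was 2967 with a fold of at least 6, 875 with a fold of at least 10, 852 with a ratio of at least 0.9 in either direction (to 2 decimals) and 1011 without chromosomes 1, 5 and 8. The other 8 alternatives gave 1101 to 2111 regions. Ranking folds within each list gave 1924, of which 1216 were members (78.8% of the members). Dividing folds by their local median in windows of 10 Mb gave 1294, of which 1049 were members.

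The AP-1 share of 40.2% was 37.3% with a fold of at least 6, 36.3% with coding TSSs only, 26.2% within 50 bp of the summit and 60.7% in the whole region. The TEAD share of 16.8% was 14.6% with coding TSSs only, 9.66% within 50 bp, 18.8% at the Dox summit and 43.7% in the whole region. The CTCF share of 5.64% was 7.08% and 4.34% with a fold of at least 6 and 10, 7.20% with coding TSSs only, 3.37% within 50 bp and 20.8% in the whole region. The intronic share of 53.5% was 50.6% with the narrower ratio, 50.05% beyond 10 kb of a TSS and 36.6% with coding introns only. The causes were not tested, other than that a smaller or larger window holds fewer or more matches. The remaining alternatives, and all 12 for the median summit distance (31 to 39 bp), left these values within their 95% intervals. The alternatives without chromosomes 1, 5 and 8, without repeated 31-mers and with local medians were chosen after seeing the data.

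No paired analysis was possible because each peak list pools its replicates, and for the same reason no replicate was left out. The spread of the ratio between cultures is unknown here, and so is the depth of the lists, whose scales were taken as deposited.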
